A study of Rattus norvegicus with 18 samples.

Results

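The 12 libraries described here compared rat cortical neuroglial cultures that received glutamate alone with cultures that had also been given secreted material of glial progenitor cells. The groups were taken from the sample titles. The 9 libraries of Glutamate_vesicles, Glutamate_secret and Glutamate_BPC, 3 of each, formed the preparation side, the libraries Glutamate 1, 2 and 3 formed the other side, and the replicate number entered the model as a block. These are 12 of the 18 libraries of the series, and the remaining 6 belong to Control and Memantine.

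All cultures were primary cells of newborn Wistar rat cortex that hold neurons and glia and were used on day 10 in vitro, after cytosine arabinoside had been applied against dividing glia. The Glutamate group and the 3 preparation groups shared the exposure to 100 µM glutamate, and RNA was taken 4 h after it. The preparations came from glial progenitors derived from human induced pluripotent stem cells and were added the day before glutamate. They comprised extracellular vesicles, the total secretome and its proteins of 3 to 100 kDa. The labels name the vesicle group, whereas they do not say which of the remaining preparations is Glutamate_secret and which is Glutamate_BPC. Column headings of the deposited tables point to the 3 to 100 kDa fraction for Glutamate_secret, and the group names are used here as given. Control cultures were untreated. Memantine cultures received 100 µM glutamate as well, together with that NMDA receptor blocker at 100 µM. The labels do not state whether replicates were separate cultures, so that p-values measure only the spread between these libraries, which may be technical.

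Excess glutamate holds NMDA and AMPA receptors open, floods neurons with calcium and sodium, and damages them, a process called excitotoxicity. Glia around the neurons take up glutamate and potassium, shape the extracellular matrix and release growth factors such as those of the transforming growth factor beta (TGF-beta) family. Vesicles and secreted proteins of progenitor cells are known as carriers of matrix proteins, annexins and growth factors. The RNA was taken from the cultures and quantified on rat transcripts, so that reads of human RNA were not counted separately.

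The total of expected counts ranged from 10406915 to 11532961 in Glutamate and from 9235035 to 17206354 on the preparation side. The cultures carried RNA of the cell types their label names. All 16 neuronal markers on the marker list and 11 of 12 astrocyte markers passed the filter on low counts. The markers of endothelial cells were close to absent, since only 2 of 10 passed and their summed level stayed between 0.32 and 3.6 CPM (counts scaled to the size of the library) in all 12 libraries. Ribosomal RNA took 8.0% to 20.4% of counts in Glutamate and 3.04% to 26.6% on the preparation side. The mean difference between the preparation libraries and the Glutamate library of the same number was -0.45 for the log2 share of ribosomal RNA (exact permutation test within numbers, two-sided, p = 0.30, 0.30 after adjustment over 3 measures, where 0.016 is the smallest p the design allows). The share of ribosomal protein messages was higher by 0.52 on the log2 scale (p = 0.078 in the same exact test, adjusted 0.23), and the log2 total count was higher by 0.21 (exact p = 0.30, adjusted 0.30).

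The pooled comparison asked which genes the preparations shared in their difference from glutamate alone. Lower levels of Tgfb2, Atrx and Rsad2 were the changes that the test called, and no gene was called higher. Tgfb2 encodes a TGF-beta ligand, Atrx a chromatin remodelling enzyme that deposits histone H3.3, and Rsad2 the interferon-induced antiviral protein viperin. The log2 fold changes were -1.22 for Tgfb2, -1.16 for Atrx and -4.16 for Rsad2, the last of them with most of its Glutamate counts in 1 library. In edgeR's quasi-likelihood test, 3 of 13974 genes (0.0215%) had an adjusted p below 0.05. At an unadjusted p below 0.05 it found 1053 genes (7.54%), 493 higher (3.53%) and 560 lower (4.01%) with the preparations. The median log2 fold change of all tested genes was 0.06. The number of calls depended on the fit. It was 0 without the block, 62 with the likelihood-ratio test and 120 with DESeq2, and it ranged from 0 to 6 when 1 library was left out.

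Tgfb2 had 85.2, 90.9 and 101 CPM in Glutamate 1, 2 and 3. In the 9 preparation libraries its lowest level was 30.8, its median 39.0 and its highest 51.6 CPM. Each preparation library was below each Glutamate library. The mean was 40.1 ± 7.0 CPM (SD, n = 9) against 92.2 ± 7.79 CPM (SD, n = 3), a log2 fold change of -1.22 (adjusted p = 0.030 in edgeR, SE 0.16). The fitted values for Glutamate_vesicles, Glutamate_secret and Glutamate_BPC were -1.32, -1.07 and -1.27. Across all alternatives the log2 fold change stayed between -1.38 and -1.12, while the call held in 9 of 27. It was lost in 9 of the 12 fits that left out 1 library, with the exceptions of Glutamate_vesicles 1, Glutamate_vesicles 3 and Glutamate_secret 3, and the adjusted p ranged from 0.012 to 0.79 over these 12.

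Atrx had 113, 220 and 169 CPM in Glutamate 1, 2 and 3. The preparation libraries ranged from 50.9 to 95.6 CPM with a median of 73.7. The sides did not overlap, and the Glutamate libraries differed among themselves by more than the preparation libraries did. The log2 fold change was -1.16 (adjusted p = 0.045 in edgeR, SE 0.16), with -1.04, -1.15 and -1.30 in the order of preparations given above. It lay between -1.32 and -1.05 in the alternatives. Its call was lost in 10 of the 12 fits without 1 library and held without Glutamate_vesicles 1 or Glutamate_vesicles 3.

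**Figure D1:**
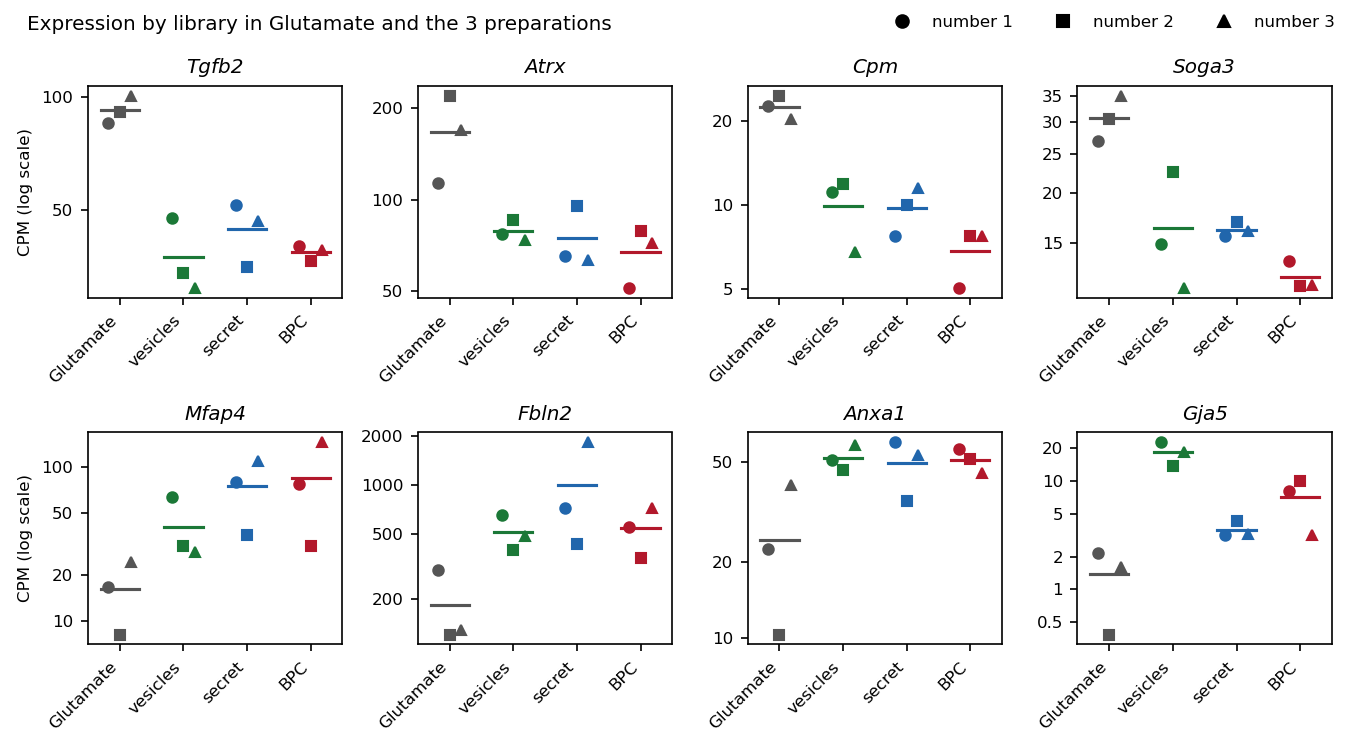
Expression of 8 genes in the 12 libraries. The vertical axis gives CPM on a log scale, the horizontal axis the group, the marker shape the replicate number and the horizontal line the group mean (n = 3). Tgfb2 lies at 85.2 to 101 CPM in Glutamate and at 30.8 to 51.6 CPM in the 9 preparation libraries, and Fbln2 and Gja5 show the opposite order without overlap.

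Genes shifted in the same direction in all 3 preparations were counted next. Over all tested genes, the 3 fitted signs agreed in 6646 (47.6%), 3944 of them higher (28.2%) and 2702 lower (19.3%). The 3 comparisons use the same Glutamate libraries, so that this agreement is not independent. With an unadjusted p below 0.05 and a fold above 1.5, 736 genes (5.27%) passed, 351 higher (2.51%) and 385 lower (2.76%). The results of the paper give these 2 limits without saying whether p was adjusted. Its methods name a false discovery rate (adjusted p) below 0.05 instead. All 736 had the same sign in the 3 preparations, which the selection by the pooled value largely fixes. This number was 328 without the block, 349 without Glutamate 2 and 1439 without Glutamate 1. It was 1127 without number 1, 1179 without the preparation Glutamate_vesicles and 258 without number 2 (256 of them with the same sign in each preparation), 1151 without Glutamate_vesicles 3 (1150 with the same sign) and 2043 (2034) with the ribosomal RNA share as a covariate.

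Stricter counts were made without a model. In 339 genes (2.43%) all 9 preparation libraries were above the Glutamate library of their own number, and in 454 (3.25%) all 9 were below it. In 43 genes (0.308%) all 9 were above each of the 3 Glutamate libraries, and in 76 (0.544%) they were below each of them. Of the 12 lower genes named by rule, which are the ones with the smallest p among those of sufficient level, all 12 were below the Glutamate library of their number in all 9 libraries and 9 did not overlap with Glutamate at all. Of the 12 higher genes named in the same way, 11 were above their own number throughout and 2, Mfap4 and Fbln2, did not overlap. These genes were chosen by the p of the same comparison, so that their counts describe them and are no further evidence.

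Beside Tgfb2 and Atrx, the lower named genes held regulators of growth and of the genome. None of those described in this paragraph passed the adjusted test (edgeR adjusted p = 0.23 for each). Cdkn1c, which encodes the cell cycle inhibitor p57, had 277, 91.4 and 214 CPM in Glutamate 1, 2 and 3 and 32.4 to 158 CPM with the preparations, with a median of 49.7. Each preparation library was below the Glutamate library of its number although the sides overlapped, and the log2 fold change was -1.50 (SE 0.29). Rif1, a factor of replication timing and double-strand break repair, had 19.3, 29.8 and 29.9 CPM in Glutamate and 10.5 to 19.3 CPM with the preparations, with a median of 13.4. The highest preparation library came close to Glutamate 1, and the log2 fold change was -0.88 (SE 0.17). Ankrd12, a nuclear ankyrin repeat protein, had 198, 271 and 272 CPM in Glutamate and 71.3 to 169 CPM with the preparations, a log2 fold change of -1.20 (SE 0.24). Ptpre, a receptor-type tyrosine phosphatase, had 8.97, 12.9 and 10.1 CPM in Glutamate and 3.96 to 7.89 CPM with the preparations (log2 fold change -1.03, SE 0.21). The pseudogene Zrsr2-ps1, whose reads may be shared with the splicing factor gene it resembles, had a log2 fold change of -0.99 (SE 0.20), and its level is uncertain for that reason.

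Membrane proteins formed another part of the lower set, again with an edgeR adjusted p of 0.23 each. Cpm, the gene of the membrane-bound carboxypeptidase M, had 22.5, 24.7 and 20.3 CPM in Glutamate 1, 2 and 3 and 5.01 to 11.9 CPM with the preparations, with a median of 7.74. The sides were separated, Glutamate_BPC 1 was lowest, and the log2 fold change was -1.36 (SE 0.24). Slc13a3, a sodium-coupled dicarboxylate transporter, had 22.3, 29.7 and 29.1 CPM against 4.69 to 15.7 CPM, a log2 fold change of -1.36 (SE 0.27). Kcnj16 encodes Kir5.1, a potassium channel subunit that joins Kir4.1 in glia. It had 8.58, 5.01 and 9.20 CPM in Glutamate and 0.91 to 5.90 CPM with the preparations, a log2 fold change of -1.78 (SE 0.35). Only Glutamate_vesicles 1 exceeded Glutamate 2, the lowest Glutamate library. Soga3 had 27.0, 30.6 and 35.0 CPM against 11.5 to 22.6 CPM, without overlap, and a log2 fold change of -1.06 (SE 0.21). Mx2, an interferon-induced GTPase and the last of the lower set, is described with the genes of its kind below. The next genes beyond the named 12 were Opcml (-0.98) and Bmp4 (-1.11), at p values of 3.3e-04 and 3.4e-04, where Mx2 had 3.3e-04.

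Of the 12 higher named genes, 4 encode proteins of the extracellular matrix, and none of them passed the adjusted test. Mfap4, a glycoprotein of elastic microfibrils, had 16.7, 8.18 and 24.1 CPM in Glutamate 1, 2 and 3. With the preparations it had 28.0 to 145 CPM and a median of 63.9, so that each preparation library was above each Glutamate library. The log2 fold change was 2.03 (adjusted p = 0.23 in edgeR, SE 0.39). Fbln2, a fibulin that links basement membranes and elastic fibres, had 302, 121 and 130 CPM in Glutamate and 356 to 1841 CPM with the preparations, with a median of 555. The highest value was that of Glutamate_secret 3, Glutamate 1 came closest to the preparations, and the log2 fold change was 1.82 (adjusted p = 0.30 in edgeR, SE 0.44). Its fitted values were 1.52, 2.34 and 1.55 in Glutamate_vesicles, Glutamate_secret and Glutamate_BPC. Fbln5, a fibulin required for elastic fibres, had 17.3, 30.1 and 17.5 CPM against 24.9 to 65.9 CPM, a log2 fold change of 0.94 (adjusted p = 0.23 in edgeR, SE 0.19). The ranges overlapped because number 2 was high on both sides. Bgn, the small proteoglycan biglycan, had 8.97, 10.8 and 31.4 CPM against 23.5 to 115 CPM (log2 fold change 1.75, SE 0.40, edgeR adjusted p = 0.29). Of the 9 libraries, 8 were above their own number, and Glutamate_vesicles 3 was not.

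The other higher named genes had roles in membranes, secretion, division and signalling, with edgeR adjusted p values from 0.23 to 0.30. Anxa1, a calcium-binding annexin with anti-inflammatory action, had 22.7, 10.3 and 40.4 CPM in Glutamate and 34.9 to 59.8 CPM with the preparations, with a median of 51.5. The preparation libraries were close together, the Glutamate libraries were not, and the log2 fold change of 1.16 (SE 0.28) was 0.79 without Glutamate 2. Emp3, a small membrane protein, had 1.67, 0.38 and 3.57 CPM against 1.65 to 13.1 CPM (2.09, SE 0.49). Pdlim7, which binds the actin cytoskeleton, had 97.6, 9.64 and 44.8 CPM against 57.9 to 171 CPM (1.57, SE 0.36). Glutamate 2 was the lowest library for both genes, and the value for Pdlim7 was 1.08 without it and 2.22 without Glutamate 1. Kdelr3, a receptor that returns proteins to the endoplasmic reticulum, had a log2 fold change of 0.87 (SE 0.17). Ube2c, the ubiquitin-conjugating enzyme of mitotic exit, reached 0.98 (SE 0.20). Apcdd1, an inhibitor of Wnt signalling, had 0.93 (SE 0.22). Ptpn5, the neuronal phosphatase STEP, had 11.4, 4.88 and 4.22 CPM in Glutamate and 10.9 to 21.2 CPM with the preparations (1.19, SE 0.28). Fam89a had 14.5, 4.50 and 7.79 CPM against 13.6 to 22.9 CPM (1.18, SE 0.28). The next genes beyond the named 12 were Capg (1.91) and Kcnip3 (1.02), both at a p of 0.0014, where Fbln2 had 0.0011.

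**Figure D2:**
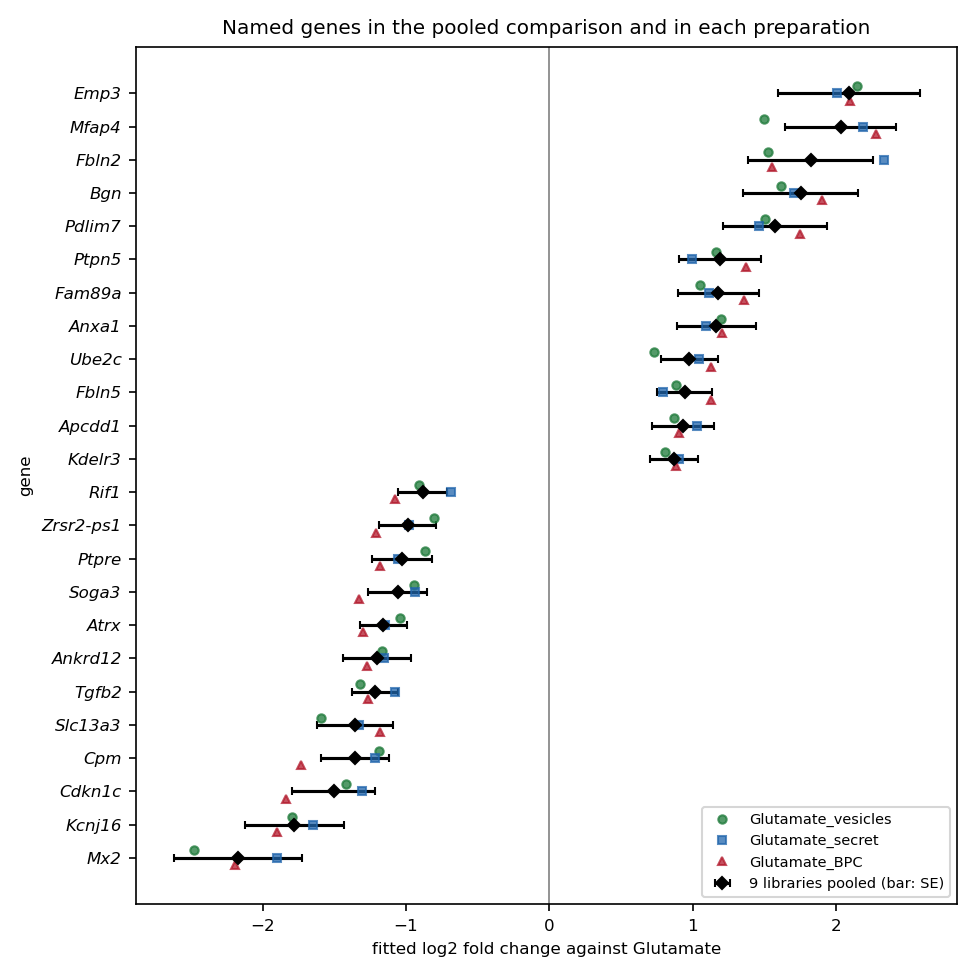
Fitted log2 fold changes against Glutamate of the 24 named genes. Diamonds with bars give the pooled value and its SE, and coloured points give each preparation from the fit with 4 group means. All 3 preparations lie on the same side of 0 for each gene, as the naming rule requires, with -1.32, -1.07 and -1.27 for Tgfb2.

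The preparations were also compared with each other, because a pooled value can hide a difference between them. The F test of edgeR over the 3 preparation means called 0 of 13974 genes (smallest adjusted p 0.66), and 749 genes (5.36%) passed an unadjusted p below 0.05. The likelihood-ratio test called 52 genes and DESeq2 15. Each preparation taken alone against Glutamate gave 0 calls in edgeR. The counts at an unadjusted p below 0.05 were 1028 (7.36%) for Glutamate_vesicles, 1130 (8.09%) for Glutamate_secret and 1132 (8.1%) for Glutamate_BPC. Gja5, the gap junction protein connexin 40, had fitted log2 fold changes of 3.82, 1.5 and 2.44 in these 3 groups, and Dysf, the membrane repair protein dysferlin, had 2.52, 1.28 and 1.12. These absent calls do not show that the preparations acted alike.

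Levels in the remaining groups of the series placed these genes further. In a fit of all 18 libraries that was added after the values had been seen, 1944 of 14398 genes (13.5%) were called between the pooled preparations and Control, 553 of them higher (3.84%), and 808 (5.61%) between the preparations and Memantine, 80 of them higher (0.556%). Control 1 had 43.0% ribosomal RNA, against 6.80% and 6.58% in Control 2 and 3, and the part of this in the comparison was not tested. The number of genes called against Control was 1302 without Control 1 (172 higher), 1690 without Control 2 and 1224 without Control 3. Against Memantine, edgeR called 0 genes without Memantine 1 or Memantine 2 (1369 and 1539 at an unadjusted p below 0.05) and 3103 without Memantine 3. Tgfb2 was lower than in both, with log2 fold changes of -2.10 (SE 0.29, edgeR adjusted p = 6.8e-04) against Control and -1.44 (SE 0.29, adjusted p = 0.011) against Memantine. Control had 393, 113 and 87.0 CPM, and Memantine had 188, 105 and 59.4 CPM, so that Memantine 3 came closest to the preparations. Without Control 1 the value for Tgfb2 was -1.45 (edgeR adjusted p = 0.0026). Without Memantine 1 and Memantine 2 it was -1.22 and -1.34 against Memantine, where no gene was called. Fbln2 was higher than in Control by 2.16 and higher than in Memantine by 2.43 (edgeR adjusted p = 0.0071 and 0.011). Mfap4 was higher by 2.82 and 2.38 (edgeR adjusted p = 0.0014 and 0.010). Atrx was lower than in Control by a log2 fold change of -0.96 and lower than in Memantine by -1.17 (edgeR adjusted p = 0.027 and 0.021), and its call against Control was lost without Control 1 (-0.74, edgeR adjusted p = 0.19) and without Control 2 (-1.03, edgeR adjusted p = 0.052). For Cdkn1c (-1.08 and -0.54), Cpm (-0.38 and -0.46), Rif1 (-0.13 and -0.42), Ptpn5 (-0.66 and -0.12) and Mx2 (-1.38 and -1.01) neither comparison was called. Their edgeR adjusted p values lay between 0.056 and 0.86.

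In 8 genes (0.0556%) all 9 preparation libraries were above the other 9 libraries of the series, and in 3 (0.0208%) they were below all of them. The higher genes were Fbln2, Gja5, Dysf, Olig1, Kcnip3, Pdia5, Rarres1 and Adra1d, and the lower genes were Tgfb2, Drd1 and Setd3. They were picked by their levels, and the list is a description. Gja5 had at most 2.20 CPM in the other 9 libraries and 3.15 to 22.8 CPM with the preparations, at the scaling of 18 libraries. Dysf had 3.71 to 14.6 CPM in the others and 15.7 to 79.1 CPM with the preparations. Olig1, a transcription factor of the oligodendrocyte lineage, had 115 to 339 CPM and 349 to 637 CPM. The log2 fold changes of these genes against Glutamate were 2.95 (SE 0.83), 1.76 (SE 0.52) and 0.70 (SE 0.22), with edgeR adjusted p values of 0.37, 0.41 and 0.47. Setd3, a histidine methyltransferase of actin, showed the smallest shift, with 51.8 to 60.6 CPM with the preparations and 63.2 to 92.5 CPM elsewhere.

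Gene lists were described by counts at an unadjusted p below 0.05 and by their medians, to be read beside 3.53% higher, 4.01% lower and a median of 0.06 for all genes. Of the 25 pathway lists, the one of TGF-beta and BMP signalling held a called member, Tgfb2. Of its 29 tested members 2 were lower at this criterion, Tgfb2 and the ligand Bmp4, and 2 were higher, the target Id1 and the receptor Acvr1. Bmp4 had 50.1, 41.3 and 57.2 CPM in Glutamate and 15.4 to 40.6 CPM with the preparations, with a median of 21.1 and no overlap (log2 fold change -1.11, SE 0.23, edgeR adjusted p = 0.23). Id1 had 27.5, 11.2 and 25.1 CPM against 22.1 to 57.1 CPM (0.80, SE 0.30, edgeR adjusted p = 0.58). The median of the list was -0.05, and 13 of 29 values were positive.

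Of 40 tested matrix genes 7 were higher and 0 lower, with a median of 0.37 that was 0.56 without Glutamate 2 and 0.28 without Glutamate 1. Beside Fbln5, Bgn and Fbln2 they were Spp1 (osteopontin, log2 fold change 1.69, SE 0.44), Postn (periostin, 3.97, SE 1.5), Fn1 (fibronectin, 1.66, SE 0.70) and Thbs1 (thrombospondin 1, 1.45, SE 0.65), with edgeR adjusted p values from 0.34 to 0.64. Spp1 had 18.8, 20.4 and 79.1 CPM in Glutamate and 29.0 to 286 CPM with the preparations. Postn was listed at 0 in Glutamate 1 and 3 and reached at most 4.78 CPM, so that its fold change rests on few counts. The summed level of the list was 2609 to 3955 CPM in Glutamate and 2684 to 5193 CPM with the preparations. Among matrix proteases and their inhibitors, Timp1 had 411, 24.6 and 111 CPM in Glutamate and 155 to 691 CPM with the preparations (1.32, SE 0.40, edgeR adjusted p = 0.43). Mmp11 was the other higher member (0.78), and Mmp14, a membrane-bound collagenase, was the lower one (-0.73, SE 0.21).

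Of 17 genes of membrane repair 5 were higher and 0 lower, with a median of 0.59 that was 0.24 without Glutamate 2 and 0.34 without Glutamate 1. They were Anxa1, S100a11 (2.71, SE 0.75), Dysf, S100a10 (1.04, SE 0.38) and Anxa5 (0.69, SE 0.30). S100a11, a calcium-binding partner of annexins, had 3.2, 0.32 and 1.78 CPM in Glutamate and 2.69 to 34.8 CPM with the preparations. S100a10 had 523, 44.1 and 305 CPM against 181 to 781 CPM. Both genes were lowest in Glutamate 2. The summed level of the 17 genes was above the Glutamate library of the same number in 9 of 9 libraries.

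Of 30 cell cycle genes 7 were higher and 0 lower. In 9 of the 30 genes all 9 preparation libraries were above their own number, beside 2.43% of all tested genes. The mitotic kinase Cdk1 had 29.6, 14.9 and 36.8 CPM in Glutamate and 25.6 to 66.9 CPM with the preparations (0.70, SE 0.19, edgeR adjusted p = 0.37). Cdc20 (0.68, SE 0.19), Ccnb2 (0.68, SE 0.20), Aurka (0.61, SE 0.23), Ccnb1 (0.41, SE 0.17) and Plk1 (0.53, SE 0.22), which act in mitosis, and the replication factor Mcm3 (0.38, SE 0.17) were the others. Ccnb1 alone did not overlap, with 19.7 to 21.1 CPM in Glutamate and 21.2 to 32.6 CPM with the preparations. Over all tested genes 0.308% were higher without overlap. The list's median was 0.17, and it lay between 0.15 and 0.28 under the scaling alternatives and without each Glutamate library. The number of higher members was 3 without Glutamate 1, 4 without Glutamate 3, 4 without the block and 1 without number 1. In all 3 preparations 16 of the 30 genes were higher and 4 were lower, beside 28.2% and 19.3% of all tested genes. The summed level of the list was 1432 to 1635 CPM in Glutamate and 1289 to 1755 CPM with the preparations. It was above the own number in 5 of 9 libraries.

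**Figure D3:**
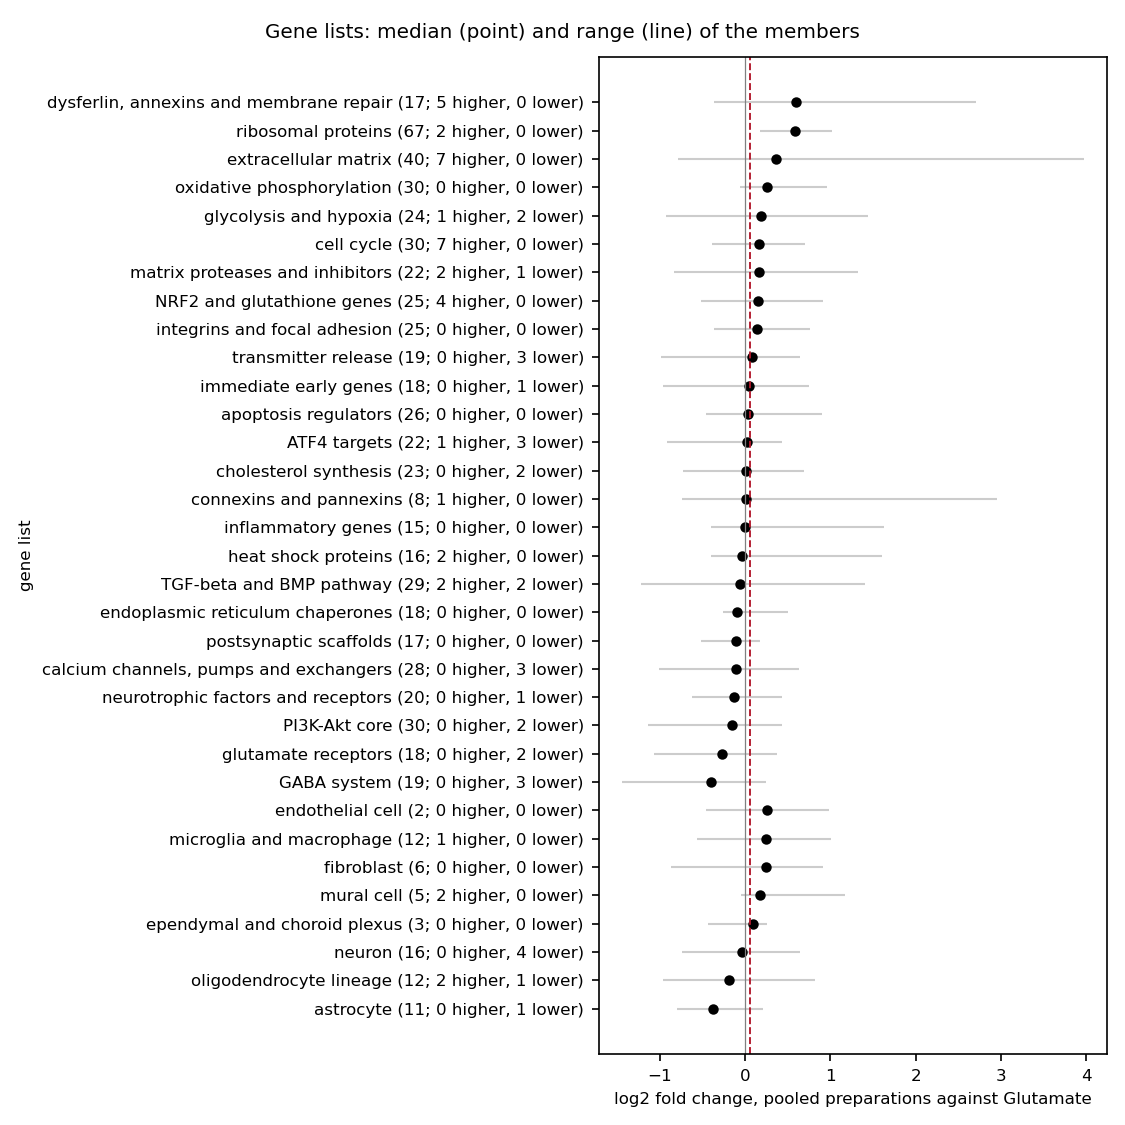
Median (point) and range (line) of the log2 fold change of the preparations against Glutamate for the 25 pathway lists (upper part) and the 8 lists of cell type markers (lower part). Brackets give the number of tested members and how many were higher or lower at an unadjusted p below 0.05, and the dashed line is the median of all tested genes, 0.06. The membrane repair list (0.59) and the ribosomal proteins (0.58) have the highest medians and the GABA system (-0.40) the lowest.

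Of the 5 lists of neuronal transmission and calcium handling, 4 had lower and no higher members at the unadjusted criterion, and the postsynaptic scaffolds had neither. In the GABA system 3 of 19 were lower and 0 higher, with a median of -0.40. They were the GABA transporter Slc6a11 (-1.45, SE 0.39), the receptor subunit Gabbr2 (-0.64, SE 0.24) and the receptor subunit Gabrb1 (-1.05, SE 0.43). Slc6a11 had 4.10, 59.9 and 15.1 CPM in Glutamate and 2.21 to 24.5 CPM with the preparations, with Glutamate 2 far above the rest. The number of lower members of the GABA list was 1 without Glutamate 2, where the median was -0.20, and 6 without Glutamate 1. Of 18 glutamate receptors 2 were lower, the metabotropic receptor Grm3 (-1.07, SE 0.27) and the AMPA receptor subunit Gria2 (-0.60, SE 0.24). Grm3 had 5.0, 9.38 and 7.88 CPM against 2.08 to 5.25 CPM and was below its own number in 9 of 9 libraries. Without Glutamate 2 the receptor list had 1 lower member and a median of -0.14. Of 19 genes of transmitter release 3 were lower, among them Pclo, a scaffold of the presynaptic active zone (-0.99, SE 0.23), and Sv2a, a synaptic vesicle protein (-0.58, SE 0.16), both below their own number throughout. The remaining one was Cplx2 (-0.84, SE 0.37), and the median of this list was 0.08. Of 28 genes for calcium channels, pumps and exchangers 3 were lower, the calcium pump Atp2b4 (-0.69), the channel subunit Cacna1d (-0.67) and the release channel Ryr2 (-1.01). This count was 1 without Glutamate 2, with 1 higher member and a median of -0.01, and 0 in the fit of 18 libraries. Their edgeR adjusted p values lay between 0.29 and 0.64 for all genes of this paragraph. The postsynaptic list held 17 tested genes.

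Markers of cell types are given beside these groups. Of 16 neuronal markers 4 were lower and 0 higher, Rbfox3 (-0.67, SE 0.23), Elavl4 (-0.63, SE 0.21), Elavl3 (-0.61, SE 0.22) and Map2 (-0.74, SE 0.34). The median of the 16 was -0.04, and their summed level was 1257 to 1878 CPM in Glutamate and 976 to 1805 CPM with the preparations, below the Glutamate library of the same number in 8 of 9. The number of lower neuronal markers was 0 without Glutamate 2 and in the fit of 18 libraries, and 1 without Glutamate 3 or without the block, and the median was -0.21 without Glutamate 3. Of 5 tested mural cell markers 2 were higher, Tagln (1.18, SE 0.35) and Cnn1 (1.13, SE 0.48). Their summed level was 105 to 400 CPM in Glutamate and 308 to 817 CPM with the preparations, above the own number in 9 of 9, and nearly all of it was Tagln, a protein of contractile cells. Of the 10 mural markers 5 did not pass the filter. Fibroblast markers (6 tested of 10) and endothelial markers had 0 members past the criterion. Of 11 astrocyte markers 1 was lower, Aldoc (-0.80, SE 0.36), while the median of the 11 was -0.37 and 3 of them had a positive value. In all 3 preparations 8 of the 11 had a negative value, beside 19.3% of all tested genes. The summed level of the 11 went the other way and was above the own number in 6 of 9 libraries. It was 7115 to 12945 CPM in Glutamate and 4111 to 15063 CPM with the preparations. Of 12 microglial markers 1 was higher, Cd68 (0.75, SE 0.26), and of 12 markers of the oligodendrocyte lineage 2 were higher, Olig1 and Cspg4, and 1 was lower. The median of the oligodendrocyte lineage list was -0.18, and 5 of its 12 values were positive. In all 3 preparations 4 of these 12 markers were higher and 5 were lower, beside 28.2% and 19.3% of all tested genes. Of 3 ependymal markers none passed. The part of cell composition in the shifts was not tested, and in these cultures fewer cells of a type and less RNA per cell cannot be told apart.

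The shares of members past the criterion were 18.2% for ATF4 targets, 16% for NRF2 and glutathione genes and 12.5% for both heat shock and glycolysis genes, beside 7.54% over all genes. Of 22 ATF4 targets Atf3 (-0.91, SE 0.31), Sesn2 (-0.48) and Psat1 (-0.45) were lower and Ddit4 (0.39) was higher. Atf3, a stress-induced transcription factor, had 50.2, 30.2 and 27.5 CPM in Glutamate and 7.70 to 31.8 CPM with the preparations. Without Glutamate 3, 0 ATF4 targets passed in either direction. Of 25 NRF2 and glutathione genes 4 were higher and 0 lower, among them the redox protein thioredoxin (Txn1, 0.92, SE 0.38), the glutathione synthetase gene Gss (0.56, SE 0.24) and the glutathione peroxidase gene Gpx3 (0.72, SE 0.31). The number of higher members was 1 without Glutamate 2, where 1 was lower, 1 without Glutamate 3 and 1 in the fit of 18 libraries. Hk2, the inducible hexokinase, was the clearest of 24 genes of glycolysis and hypoxia, with 40.1, 32.5 and 24.4 CPM against 10.8 to 20.4 CPM and no overlap (-0.93, SE 0.21, edgeR adjusted p = 0.27). In that list Aldoc was lower as well, and Slc16a3 was higher (1.44, SE 0.61). The list as a whole did not go with Hk2, since its median was 0.18 and 18 of 24 values were positive. The heat shock genes Hspa1a (1.45, SE 0.47) and Hspb1 (1.61, SE 0.55) were higher, while 7 of the 16 heat shock genes had a positive value and their median was -0.04. Without Glutamate 2, 0 heat shock genes were higher and 1 was lower. Bdnf of 20 neurotrophic factors and receptors was lower (-0.59, SE 0.26) and so was Fosl2 of 18 immediate early genes (-0.97, SE 0.37). Of 30 PI3K-Akt genes 2 were lower (Pdpk1 and Pik3r3) and of 23 cholesterol genes 2 (Idi1 and Insig1), and Gja5 was higher among 8 connexins and pannexins. The shares were 5% for neurotrophic, 5.56% for immediate early and 6.67% for PI3K-Akt genes, all below the 7.54% over all genes. They were 8.7% for cholesterol genes and 12.5% for connexins and pannexins. Regulators of apoptosis (26 tested), chaperones of the endoplasmic reticulum (18), inflammatory genes (15) and integrins (25) had 0 members past the criterion. The edgeR adjusted p values of the genes named in this paragraph lay between 0.27 and 0.64.

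Among ribosomal protein genes, all 67 tested had a positive log2 fold change, with a median of 0.58, but 2 of them, Rpl31 and Rpl39, had an unadjusted p below 0.05. The summed level was 17427 to 182456 CPM in Glutamate, lowest in Glutamate 2, and 33520 to 222408 CPM with the preparations, above the own number in 6 of 9. The median was 0.24 without Glutamate 2 and 1.07 without Glutamate 1, where 34 genes passed that criterion. The number was 24 without number 1 and 51 with the ribosomal RNA share as a covariate. Of 30 genes of oxidative phosphorylation 28 had a positive value, with a median of 0.26 and 0 at the criterion, although 9 passed it without Glutamate 1. More widely, short genes were frequent on the higher side and long genes on the lower side. The span of a gene on the chromosome, known for 91% of tested genes from RefSeq, divided them into tertiles with medians of 6.73, 25.3 and 93.5 kb. In the shortest tertile 246 genes were higher and 71 lower, in the middle tertile 139 and 134, and in the longest tertile 72 and 316. The median log2 fold changes were 0.22, 0.05 and -0.08. Of the 12 named higher genes 6 were in the shortest tertile, and of the named lower genes with a known span 7 of 11 were in the longest. Without Glutamate 2 the counts were 63 and 39 in the shortest tertile and 32 and 104 in the longest, and the medians were 0.09, 0.05 and 0.01, so that the median of the longest tertile was positive. The part of gene length and of RNA quality in the shifts was not tested.

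**Figure D4:**
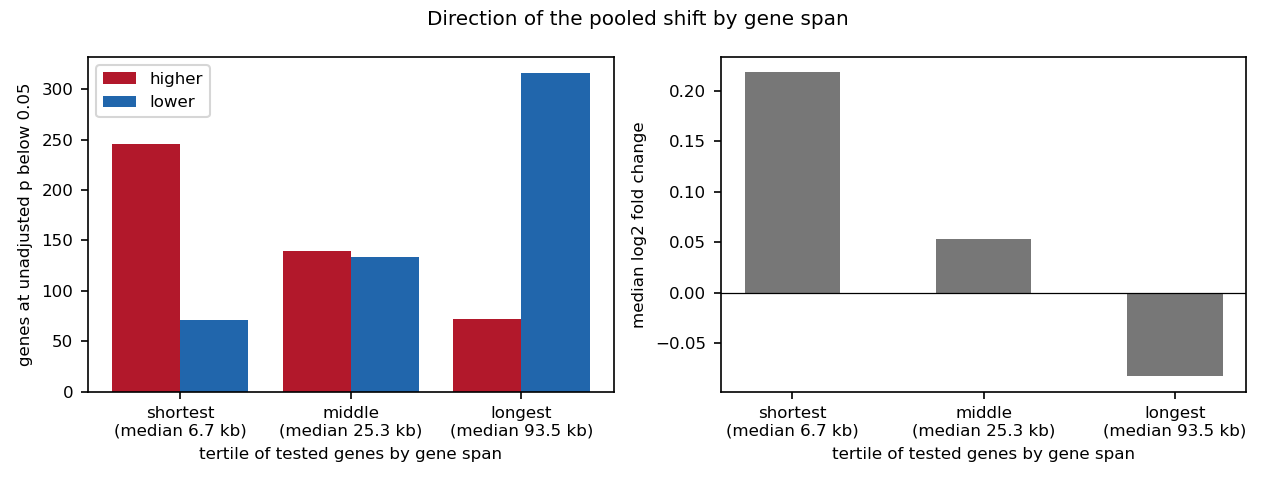
Direction of the shift by gene span. The left panel counts genes at an unadjusted p below 0.05 that were higher or lower with the preparations in each tertile of tested genes by span, and the right panel gives the median log2 fold change. Higher genes prevail in the shortest tertile (246 against 71) and lower genes in the longest (316 against 72).

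The differences of the interferon-induced genes Rsad2 and, in part, Mx2 rested on Glutamate 2. Rsad2 had 0.26, 15.8 and 0.28 CPM in Glutamate 1, 2 and 3 and at most 0.83 CPM with the preparations. Of 254 counts over the Glutamate libraries, 249 were in Glutamate 2. The 9 preparation libraries together held 46, most of them in number 2 as well. Glutamate_vesicles 2, Glutamate_secret 2 and Glutamate_BPC 2 had 21, 16 and 7. Its log2 fold change of -4.16 (adjusted p = 0.030 in edgeR, SE 0.53) was -2.94 without Glutamate 2 (adjusted p = 1.0), and its call was lost in 9 of the 12 fits without 1 library, those without Glutamate_vesicles 1, Glutamate_vesicles 3 and Glutamate_secret 3 being the exceptions. In the rest of the series it was high in Memantine 2 (20.4 CPM) and between 0 and 1.52 CPM in the others. Mx2 had 7.17, 66.0 and 26.5 CPM in Glutamate and 3.79 to 10.7 CPM with the preparations (-2.17, SE 0.45, edgeR adjusted p = 0.23). Without number 2 its value was -1.09.

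A list of 35 interferon-induced genes was added after these values had been seen. Of its 24 tested members 9 were lower and 1, Ifitm3, was higher at an unadjusted p below 0.05, with a median of -0.67. Over all tested genes 4.01% were lower and 3.53% higher, with a median of 0.06. Oas1a, an antiviral oligoadenylate synthetase, had 0.51, 9.89 and 0.94 CPM in Glutamate and 0.30 to 1.67 CPM with the preparations. Irf7, a transcription factor of the interferon response, had 1.92, 7.23 and 2.16 CPM against 1.10 to 2.29 CPM. Usp18, Parp14, Trim25 and Dhx58 were likewise highest in Glutamate 2, and Oasl2 was similar in Glutamate 2 and 3 (10.4 and 10.1 CPM). Without Glutamate 2, 2 members were lower and 0 higher, and the median was -0.10.

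**Figure D5:**
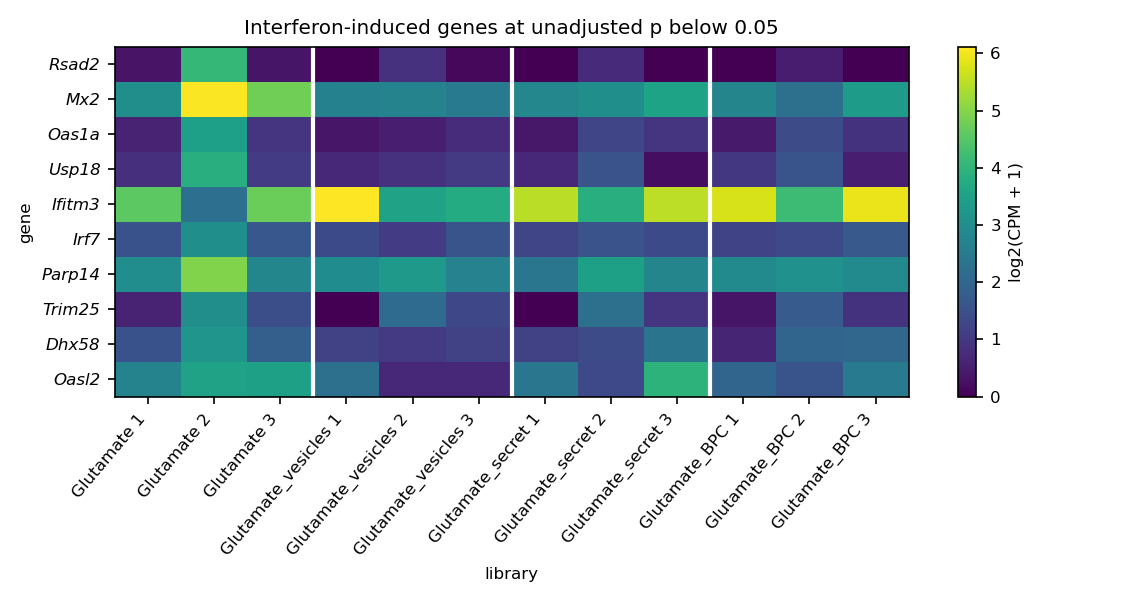
Levels of the 10 interferon-induced genes with an unadjusted p below 0.05 as log2(CPM + 1) in the 12 libraries, ordered by p. Glutamate 2 is the brightest Glutamate library for each gene other than Ifitm3, with 66.0 CPM for Mx2, while the Ifitm3 level is lowest there.

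The promoters of 3 of these genes are printed because the genes were high in the same library. Interferon-stimulated response elements, which are bound by interferon-activated transcription factors, contain the letters GAAANNGAAA or, on the other strand, TTTCNNTTTC. In RefSeq sequences of the 250 bases before the gene start (build GRCr8, which is not the build of the deposited counts), these letters on either strand were found in 3.41% of 33469 promoters. They were found in 13 of the 19 tested list members with an entry, and in 5 of 6 among the lower 9 members, namely Rsad2, Irf7, Oas1a, Oasl2 and Parp14. The list was made of interferon-induced genes, so that a high share follows from that choice and says nothing about these libraries. A match describes the sequence and is not a measured binding site. The sequences run 5′ to 3′ on the strand of the gene, and capitals mark the matches. Rsad2 is at chr6:48788121-48788370 on the minus strand, Irf7 at chr1:205800024-205800273 on the minus strand and Oas1a at chr12:41330216-41330465 on the plus strand, where 2 matches overlap.
Rsad2: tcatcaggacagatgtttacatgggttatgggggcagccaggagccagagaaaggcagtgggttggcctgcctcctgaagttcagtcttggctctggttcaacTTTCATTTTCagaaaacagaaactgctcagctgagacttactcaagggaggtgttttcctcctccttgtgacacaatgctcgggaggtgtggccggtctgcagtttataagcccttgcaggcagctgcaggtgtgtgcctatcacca
Irf7: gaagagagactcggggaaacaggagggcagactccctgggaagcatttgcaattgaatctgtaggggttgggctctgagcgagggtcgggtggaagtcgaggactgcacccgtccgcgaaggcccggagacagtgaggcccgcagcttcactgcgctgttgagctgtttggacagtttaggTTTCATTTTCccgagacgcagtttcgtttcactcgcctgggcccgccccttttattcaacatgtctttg
Oas1a: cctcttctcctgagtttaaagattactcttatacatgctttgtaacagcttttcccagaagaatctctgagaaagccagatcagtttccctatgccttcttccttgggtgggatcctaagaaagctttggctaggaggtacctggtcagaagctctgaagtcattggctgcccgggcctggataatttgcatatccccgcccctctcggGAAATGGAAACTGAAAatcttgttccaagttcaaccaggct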

How the data were processed

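The deposited values are expected counts, estimates of the reads of each gene that may be fractional. According to the methods, the authors trimmed reads with Trimmomatic and Cutadapt and quantified them with Salmon on Ensembl transcripts of the rat, the genome serving as decoy, followed by tximport. The submitters' processing notes list STAR, Salmon and the build rn6. The sources differ on the sequencing platform, and strand was not stated for counting, so that overlapping genes can share counts. The values carry no scaling between libraries. Each table has 31463 rows, of which 5581 carry transcript identifiers and 78 are ribosomal RNA.

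The expected counts were rounded to whole numbers, since the test had been planned for counts. Genes were filtered with filterByExpr by group (minimum count 10, minimum total count 15), which left 13974, and scaled with TMM. The 2 sides and the replicate number were fitted in edgeR 4.0.16 (R 4.3.3), and the two-sided quasi-likelihood test was adjusted by Benjamini and Hochberg over all tested genes, with 0.05 as the threshold. SE values come from the F statistic. Sign by preparation came from a fit with 4 group means. CPM used TMM-scaled library sizes, in a 12-library scaling unless stated. The code was tested on simulated data. Totals of 9235035 to 17206354 limit the precision of genes with few counts.

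Genes were named by rule. Among genes with the same sign in all 3 preparations and a mean log2 CPM (prior count 2) of at least 1, the rule took the 12 smallest p values in each direction, passing over rows without a symbol and ribosomal RNA. It also took up to 4 members per list. Rsad2, below that level, was added because it was called. Further list members past the unadjusted criterion were named after their values were seen, and 2 list members are not reported here. The members and lists were chosen with earlier results of these data known. Alternatives were no block, averaged preparation means, 18 libraries, the likelihood-ratio test (the study's choice), DESeq2 1.42.0, other scaling (RLE), no filter, ribosomal RNA left out or as a covariate, and leaving out libraries, numbers or preparations. The comparisons with Control and Memantine, the interferon list, the gene spans, the promoter letters, the list values under each alternative and the count over 18 libraries were added after seeing the data.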

Additional observations from a re-analysis of the deposited data

Results flagged for a closer look

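Among the 9 preparation libraries, 28 quantities were examined for a single library far from the rest, which chance gives in about 1 of 20 cases. For Fbln2 the highest library, Glutamate_secret 3, had a gap to the next library of 0.567 of the whole range of log2 CPM, past the 95% limit of Dixon's test for 9 values. For Slc13a3 the lowest library, Glutamate_vesicles 3, had a gap of 0.523 of the range.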

How the results depend on the processing

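None of the 25 genes tracked (the 24 named and Rsad2) reversed its direction in the alternatives that were run, whereas the number of calls varied. Of 672 alternative values for these genes, 571 stayed on their side of the threshold, 51 lost the call of Tgfb2, Atrx or Rsad2, and 50 gained a call, 44 of them with DESeq2 or the likelihood-ratio test.

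Against 3 genes called, 0 were called without the replicate block, with averaged preparation means, with all 18 libraries, without Glutamate_secret or without Glutamate_BPC. There were 1 without Glutamate_vesicles, 8 with the ribosomal RNA share as covariate, 62 with the likelihood-ratio test and 120 with DESeq2, and 0 to 6 when a library or a number was left out. Against 736 genes past the unadjusted criterion, 328 passed without the block, 1179 without Glutamate_vesicles, 2043 with the covariate (2034 with the same sign) and 258 to 1439 when a library or a number was left out (256 to 1439 with the same sign). Between preparations, 52 genes were called by the likelihood-ratio test, 15 by DESeq2 and 2 with the covariate, against 0.

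The block carries the replicate number, which the labels do not tie to a shared culture. Deviations from the group mean correlated between a preparation library and the Glutamate library of its number by 0.47 to 0.90 in 8 of 9 cases and by 0.0019 for Glutamate_vesicles 3, and 7 of 9 libraries correlated best with their own number. Most libraries thus went with their own number, but the labels state no pairing, so that pairing was not established. Low counts limit Rsad2 and Postn. The causes of these dependences were not tested.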

Other observations

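The remaining genes whose 9 preparation libraries lay outside the other 9 libraries of the series had these levels, at the scaling of 18 libraries. Kcnip3, a neuronal calcium sensor, had 9.37 to 16.7 CPM with the preparations and 3.43 to 8.4 CPM in the others. Pdia5, a protein disulfide isomerase of the endoplasmic reticulum, had 7.42 to 12.1 CPM and 2.28 to 7.33 CPM, so that the sides almost met. Rarres1, a retinoic acid-responsive membrane protein, had 3.26 to 8.68 CPM and 0.11 to 2.87 CPM. Adra1d, an adrenergic receptor, had 1.0 to 3.69 CPM and 0 to 0.90 CPM, and Drd1, a dopamine receptor, had 0.43 to 1.86 CPM with the preparations and 1.95 to 4.85 CPM in the others, both at few counts. Against Glutamate the log2 fold changes were 1.02 for Kcnip3, 0.94 for Pdia5, 1.67 for Rarres1, 1.70 for Adra1d, -0.88 for Drd1 and -0.16 for Setd3, with adjusted p values from 0.30 to 0.77 in edgeR.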
